A study of Mus musculus with 14 samples.

Results

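The rhombic lip and cerebellar genes examined were Atoh1, Barhl1, Ptf1a, Neurod1, Zic1, Zic2, Zic4 and Pcp2, 8 of the 41934 genes listed for each age. They were taken by gene symbol from RNA sequencing of whole brains of male mouse fetuses on a C57BL/6J background. The E13.5 brains were those of 4 Dio3+/+ and 2 Dio3-/- fetuses, the E18.5 brains those of 3 Dio3+/+ and 5 Dio3-/- fetuses, born of matings between heterozygous parents. Dio3 encodes the type 3 deiodinase, which inactivates thyroid hormone, and the Dio3-/- animals carry point mutations that abolish the enzyme in every cell while its mRNA is still made. The values used are the authors' mean normalized counts, 1 per gene and age, in which both genotypes are averaged. No level of a single genotype is therefore given and no genotype comparison was made here. All 8 genes were listed above 0 at both ages, and each symbol had a single entry.

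The cerebellum forms from the dorsal hindbrain, where the germinal zones are marked by a pair of basic helix-loop-helix factors. Atoh1 acts in the rhombic lip and specifies glutamatergic neurons, above all the granule cells, whereas Ptf1a acts in the ventricular zone and specifies GABAergic neurons, which include the Purkinje cells. Zic and Barhl proteins act in the granule lineage and Neurod1 in its differentiation. However, Zic1, Zic2, Zic4 and Neurod1 are also known from the forebrain and other regions. Their level in whole brain is therefore not that of the cerebellum alone. Whole-brain RNA does not separate regions, so the levels of Atoh1, Barhl1, Ptf1a and Pcp2 cannot be assigned to the cerebellum alone either. Pcp2 (L7) is made by Purkinje cells and retinal bipolar cells and is known as a thyroid hormone responsive gene of the postnatal cerebellum. In bulk tissue, fewer cells of a type and less RNA per cell cannot be told apart.

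The 8 genes are protein coding, and their positions are those of the GENCODE annotation on GRCm38. Atoh1 (ENSMUSG00000073043.5) is a gene of 1 exon on chromosome 6, from 64729125 to 64731245. Chromosome 2 holds Ptf1a (ENSMUSG00000026735.2) from 19445663 to 19447501, Barhl1 (ENSMUSG00000026805.14) from 28907679 to 28916668 and Neurod1 (ENSMUSG00000034701.9) from 79452521 to 79456751. Zic1 (ENSMUSG00000032368.14, from 91358058 to 91365810, minus strand) and Zic4 (ENSMUSG00000036972.14, from 91362413 to 91389348, plus strand) overlap on chromosome 9. Zic2 (ENSMUSG00000061524.8) lies on chromosome 14 from 122475435 to 122479852, beside the family member Zic5, which is read from the other strand and lies 9757 bases away. Pcp2 (ENSMUSG00000004630.18) lies on chromosome 8 from 3623371 to 3625545.

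The promoters of 4 of the genes are shown because they span the range of CpG content and hold both the most and the least abundant members. They run from 250 bases before to 50 bases after the most upstream start in RefSeq (GRCm38.p6), 5′ to 3′ on the strand of the gene, with each CpG in capitals. The Zic1 promoter is at chr9:91365719-91366018 (minus strand), the Zic4 promoter at chr9:91368722-91369021 (plus strand), the Ptf1a promoter at chr2:19445413-19445712 (plus strand) and the Pcp2 promoter at chr8:3625498-3625797 (minus strand).
Zic1: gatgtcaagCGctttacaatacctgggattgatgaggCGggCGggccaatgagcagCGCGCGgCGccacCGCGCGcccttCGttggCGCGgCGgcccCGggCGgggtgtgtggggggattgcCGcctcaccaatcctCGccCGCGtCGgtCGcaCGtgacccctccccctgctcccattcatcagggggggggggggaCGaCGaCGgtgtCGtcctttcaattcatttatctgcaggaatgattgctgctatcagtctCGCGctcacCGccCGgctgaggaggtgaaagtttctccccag
Zic4: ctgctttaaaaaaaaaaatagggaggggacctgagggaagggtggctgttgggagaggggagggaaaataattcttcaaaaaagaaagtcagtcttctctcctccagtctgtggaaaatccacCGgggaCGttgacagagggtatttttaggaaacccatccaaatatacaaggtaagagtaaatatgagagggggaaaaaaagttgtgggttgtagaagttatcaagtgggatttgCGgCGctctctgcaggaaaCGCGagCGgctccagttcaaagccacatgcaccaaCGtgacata
Ptf1a: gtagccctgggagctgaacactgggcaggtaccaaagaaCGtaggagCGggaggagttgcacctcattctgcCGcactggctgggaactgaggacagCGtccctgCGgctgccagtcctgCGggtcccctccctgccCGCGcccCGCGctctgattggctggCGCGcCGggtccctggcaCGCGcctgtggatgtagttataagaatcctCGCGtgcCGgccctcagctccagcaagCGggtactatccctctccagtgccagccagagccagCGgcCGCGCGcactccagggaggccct
Pcp2: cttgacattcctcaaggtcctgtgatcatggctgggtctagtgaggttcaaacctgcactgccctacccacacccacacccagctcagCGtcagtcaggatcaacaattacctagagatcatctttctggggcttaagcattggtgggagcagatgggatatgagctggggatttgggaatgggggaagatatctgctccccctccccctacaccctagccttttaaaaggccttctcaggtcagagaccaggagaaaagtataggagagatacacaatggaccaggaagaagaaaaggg

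The Zic1 promoter held 31 CpG and the Zic4 promoter 8, although these starts of both genes are 3204 bases apart and point away from each other. The Zic4 start used (91368972) is not the 5′ end of the GENCODE gene, which lies upstream at 91362413, inside Zic1. The CpG number of Zic4 is that of the RefSeq start alone. Ptf1a had 23 CpG, Neurod1 26, Atoh1 20 and Barhl1 9. Pcp2 had a single CpG, which placed it at percentile 9.78 of 32851 mouse promoters, whereas Zic1 was at percentile 90.0. CpG number did not order the genes as their levels did: Ptf1a, among the least abundant mRNAs, had more CpG than Zic4. The hexamer AGGTCA, the core unit bound by thyroid hormone receptors and many other nuclear receptors, was searched on both strands and found once in the Pcp2 window and once in the Barhl1 window. It occurs in 16.3% of all promoters of this length. The E-box CANNTG, the core motif of basic helix-loop-helix factors, occurred once in the windows of Zic1, Neurod1, Barhl1 and Pcp2, in 2 places in that of Zic4, and not in those of Atoh1 and Ptf1a. It is present in 72.3% of promoters. A promoter was found in the table for 7 of the 8 genes, and Zic2 was not among them.

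For each gene, the level was divided by the length of its exons and given in parts per 1000000 of all genes of the age (ppm), so that genes can be compared within an age. At E13.5 the order was Zic1 (259 ppm), Zic2 (156), Neurod1 (66.6), Barhl1 (44.1), Zic4 (24.3), Atoh1 (8.44), Ptf1a (1.49) and Pcp2 (1.12). At E18.5 it was Zic1 (246), Zic2 (139), Neurod1 (77.9), Barhl1 (31.5), Zic4 (27.4), Atoh1 (5.19), Pcp2 (2.15) and Ptf1a (0.298). The places of 6 genes were the same at both ages, and the 2 least abundant genes had changed places. For most of these means the spread between fetuses was not obtained, so it was not shown that neighbours in the order differ. Where it was, for Ptf1a and Pcp2 at E13.5, the normalized counts of the libraries, not divided by length, overlapped. The difference between both genes within each library was not tested.

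**Figure D1:**
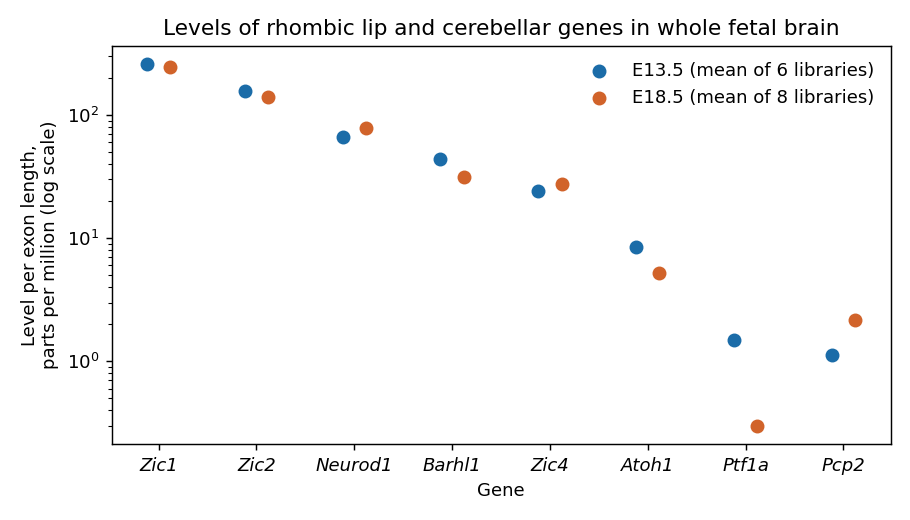
Levels of the 8 genes (x axis) as exon-length-scaled ppm of the authors' mean normalized counts (y axis, log scale), with 1 point per gene and age and no error bars because the deposited values are means over 6 (E13.5) and 8 (E18.5) libraries of both genotypes. Zic1 lies highest at both ages (259 and 246) and Ptf1a lowest at E18.5 (0.298).

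The ZIC genes, which encode zinc finger factors of dorsal neural tissue, dominated the set. Zic1 and Zic2 together made up most of the summed level, with 46.1% and 27.8% at E13.5 and 46.4% and 26.2% at E18.5. The level of Zic1 was 1.66 times that of Zic2 at E13.5 and 1.77 times at E18.5. Against Zic4, its overlapping neighbour, Zic1 was 10.6 times as high at E13.5 and 8.97 times at E18.5. The length used for Zic4 is the union of exons of 12 annotated transcripts (10335 bases), whereas its longest transcript has 3891 bases. With the longest transcripts as lengths, the ratio of Zic1 to Zic4 was 4.07 at E13.5 and 3.43 at E18.5, and Zic4 moved from place 5 to place 4, above Barhl1, at both ages. Zic5, the neighbour of Zic2, had 29.4 ppm at E13.5 and 30.8 at E18.5. By mean normalized count Zic1 ranked 324 of all genes at E13.5 (10351) and 404 at E18.5 (8599), while Zic2 (3157 and 2458) and Zic4 (1767 and 1741) were at percentiles 92.8 and 87.1 of the genes above 0 at E13.5.

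Of the granule lineage members Atoh1, Barhl1 and Neurod1, the least abundant was Atoh1, which is made by progenitors. Its mean normalized count was 126 at E13.5 and 67.6 at E18.5. Barhl1, a homeobox factor of rhombic lip derivatives, had 1211 at E13.5 and 756 at E18.5. Neurod1, a differentiation factor of granule cells and of many other neurons, had 1279 at E13.5 and 1307 at E18.5. Per exon length, the ratio of Barhl1 to Atoh1 was 5.23 at E13.5 and 6.07 at E18.5, and that of Neurod1 to Barhl1 was 1.51 and 2.47. These ratios are taken within an age and do not depend on how the ages are scaled.

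**Figure D2:**
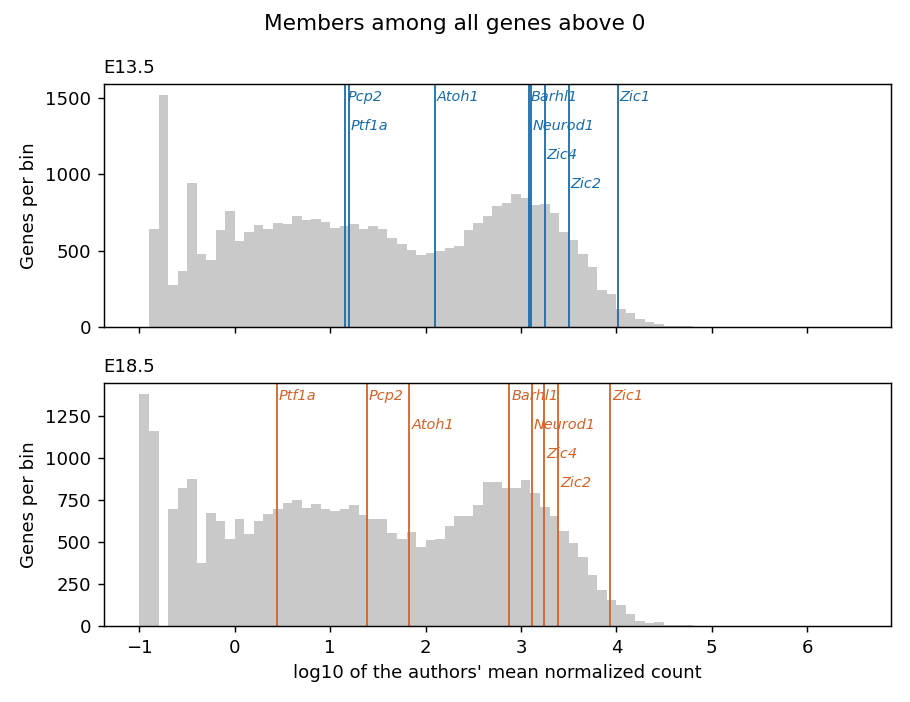
Number of genes (y axis) by log10 of the authors' mean normalized count (x axis) for all genes above 0, at E13.5 (upper panel, 31372 genes) and E18.5 (lower panel, 32498 genes), with a line for each of the 8 genes. The ZIC genes, Neurod1 and Barhl1 stand in the upper mode of the distribution, whereas Ptf1a and Pcp2 stand below it, at percentiles 44.7 and 43.8 at E13.5.

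Ptf1a and Pcp2 had the fewest reads of the 8 genes. A mean is a sum of whole reads, each worth 0.145 to 0.202 of a normalized count at E13.5 and 0.107 to 0.132 at E18.5, depending on the library. Because the means are given to 15 digits, the reads of each library could be worked out where a single split of the mean into whole reads matched it, which was so for Ptf1a at both ages and for Pcp2 at E13.5. These counts are those after the authors' batch adjustment, and the libraries have no genotype here. For the other means, among them Pcp2 at E18.5, too many splits were possible by chance and none is given.

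Ptf1a had 93 reads in all at E13.5 (exact Poisson 95% interval 75.1 to 114, counting error only, with batch-adjusted counts taken as sequenced reads). In the 6 libraries these were 13, 11, 23, 8, 17 and 21 reads, or 8.07 to 25.4 normalized counts with a median of 14.4. At E18.5 Ptf1a had 22 reads in all (interval 13.8 to 33.3). The 8 libraries held 1, 5, 2, 3, 4, 3, 3 and 1 reads, or 0.857 to 4.82 normalized counts with a median of 3.05. Every library of E13.5 thus lay above every library of E18.5, on scales that were set separately for each age. Libraries of 1 age differed as well: the highest at E13.5 had 25.4 normalized counts and the lowest 8.07. Of the exon bases of Ptf1a, 40.4% are shared with the antisense gene Ptf1aos, where a read of either strand cannot be given to 1 gene, and Ptf1aos was listed at 0 at E13.5 and at 0.126 at E18.5.

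Pcp2 had 87 reads in all at E13.5 (interval 69.7 to 107). The 6 libraries held 20, 11, 19, 14, 10 and 13 reads, so that the counts spanned 10 to 20 reads, with a median of 14.9 normalized counts. At E18.5 the mean normalized count was 24.2, which stands for 182 to 226 reads in the 8 libraries together. Its spread over libraries was not obtained. Of the exon bases of Pcp2, 51.5% are shared with Pet100, a mitochondrial complex IV assembly gene on the opposite strand, which had a mean normalized count of 210 at E13.5 and 123 at E18.5. The library with the highest normalized count of Ptf1a (25.4) had 15.7 of Pcp2, and that with the lowest (8.07) had 14.1.

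**Figure D3:**
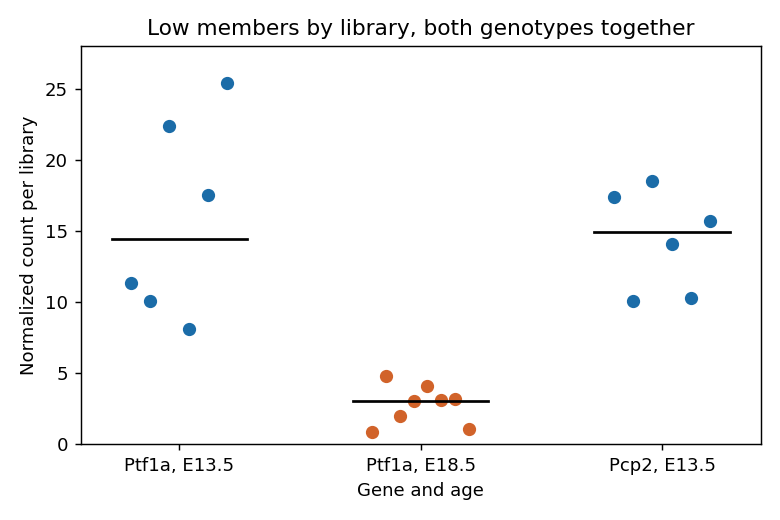
Normalized counts (y axis) in each library for Ptf1a at E13.5 and E18.5 and for Pcp2 at E13.5 (x axis), with 1 point per library, both genotypes together, and a bar at the median. The 6 points of Ptf1a at E13.5 (8.07 to 25.4) lie above the 8 points at E18.5 (0.857 to 4.82).

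Levels at both ages can only be set side by side, because the tables were normalized separately and the share of Dio3-/- libraries was 2 of 6 at E13.5 and 5 of 8 at E18.5. Age, genotype mix and sequencing batch cannot be told apart in these means, and no test was made. In ppm of the summed counts, without division by length, 5 genes were lower at E18.5 and 3 were higher, with a median log2 ratio of -0.10 against -0.07 over the 17794 genes with a mean of at least 10 at both ages, of which 54.4% were lower. The split was 4 lower and 4 higher when the ages were scaled to the median of gene ratios or to the upper quartile, and 6 lower and 2 higher with the means as deposited.

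Ptf1a had the largest difference of the 8 genes, with a log2 ratio of -2.30 (4.92-fold lower; counting interval ± 0.67). Atoh1 had a log2 ratio of -0.68 (1.60-fold lower; ± 0.16) and Barhl1 of -0.46 (1.38-fold lower; ± 0.05). The counting intervals of the ratios take the mean normalized count times the number of libraries as the reads. They leave out the spread between fetuses and the batch adjustment. The 3 genes were lower under each of 6 scalings of the ages, with log2 ratios from -2.52 to -2.10 for Ptf1a, -0.90 to -0.55 for Atoh1 and -0.68 to -0.33 for Barhl1.

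Pcp2 had a log2 ratio of 0.97 (1.96-fold; ± 0.37), with a range of 0.75 to 1.10 over the scalings. Neurod1 had 0.25 (1.19-fold; ± 0.04), with a range of 0.03 to 0.38, and with the means as deposited its 0.03 lay within the counting interval. The log2 ratio of Zic1 was -0.05 and was positive under 2 of the scalings, that of Zic2 was -0.14 (range -0.36 to -0.01), and that of Zic4 was 0.20 and was negative under 1 scaling (range -0.02 to 0.33). The length-scaled ratio of Pcp2 to Ptf1a was 0.750 at E13.5 and 7.22 at E18.5.

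**Figure D4:**
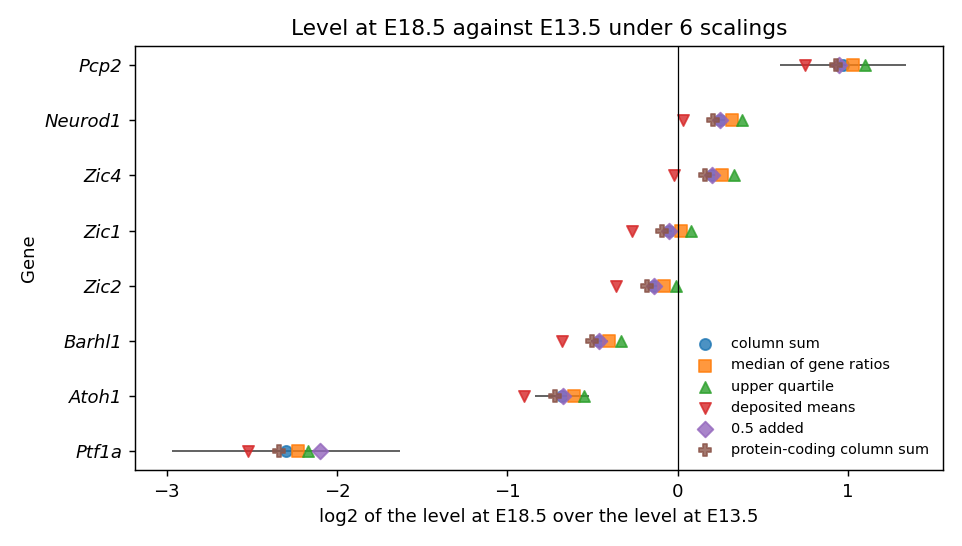
log2 ratio of the level at E18.5 over that at E13.5 (x axis) for the 8 genes (y axis) under 6 scalings of the ages, given by the symbols, with bars for the 95% counting interval of the column-sum scaling. Ptf1a, Atoh1, Barhl1 and Zic2 lie below 0 and Pcp2 and Neurod1 above 0 under every scaling, while Zic1 and Zic4 lie on both sides.

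Other genes of the cerebellar lineages were taken from 4 lists, many of whose genes are also made in other brain regions. Of 13 genes of the GABAergic lineage, 11 were lower at E18.5 and 2 were higher, and the median log2 ratio was -2.01. Prdm13, a chromatin regulator that acts with Ptf1a, was the lowest of the list at both ages (7.15 and 1.03 ppm). Lhx1, a LIM homeobox factor, had 164 ppm at E13.5. The highest at E18.5 were Gad2, which makes GABA (98.4), and Slc32a1, which loads GABA into vesicles (93.4). The log2 ratios ran from -3.27 for Kirrel2, an adhesion molecule, to 1.35 for Gad1, which also makes GABA, and the other higher gene was Slc32a1 (0.50). Ptf1a had -2.30.

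Of 15 genes of the rhombic lip and granule lineage, 12 were lower at E18.5 and 3 were higher, and the median log2 ratio was -0.98. The highest at E13.5 were Cntn2, an axonal adhesion molecule (209 ppm), and Insm1, a zinc finger factor of neuronal precursors (139). At E18.5 the highest were Neurod6 (480) and Neurod2 (186), relatives of Neurod1 that are abundant in cortical neurons. Gdf7, a roof plate ligand, was the lowest at both ages (5.03 ppm at E13.5). The log2 ratios of the 3 higher genes were 2.08 for Neurod6, 1.36 for Neurod2 and 0.85 for Reln. Olig3, which marks dorsal hindbrain progenitors, had a log2 ratio of -4.22, a larger difference than that of Atoh1 (-0.68). Barhl2, the paralog of Barhl1, had 76.0 ppm at E13.5 and 21.7 at E18.5 (log2 ratio -1.78, against -0.46 for Barhl1).

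Of 12 Purkinje cell genes, 11 had a mean of at least 10 at either age, and 8 of these were higher at E18.5 and 3 were lower. Their median log2 ratio was 1.48. The split was 10 higher and 1 lower when the ages were scaled by the upper quartile. Car8, a carbonic anhydrase relative of Purkinje cells, had a log2 ratio of 4.48 (1.70 to 37.2 ppm), and Calb1, a calcium buffer, had 1.48 (11.2 to 30.7). In ppm of the summed counts, the 3 lower genes were Ebf2 (-2.30, 70.6 to 14.1 ppm), Pvalb (-0.08) and Foxp2 (-0.02). The highest at E13.5 were Dab1, the adaptor of Reelin signalling (70.8), and Ebf2 (70.6), and at E18.5 Dab1 (109) and Pcp4 (67.7). Gng13 was the lowest at both ages (0.632 and 0.924). Pcp2 at 0.97 lay below the median of this list. Its E18.5 level (2.15, shared bases kept in its length) was near that of Pvalb (2.79), a calcium buffer of mature Purkinje cells and interneurons. Of 5 genes of the glutamatergic cerebellar nuclei, 3 were higher and 2 lower, with a median of 0.03, whereas 2 were higher and 3 lower with the means as deposited or scaled to protein-coding genes. Lhx2 (164) and Meis2 (144) were the highest at E13.5 and Tbr1 (61.3) the lowest, and at E18.5 Meis2 (144) and Slc17a6 (143) were the highest and Lhx9 (37.6) the lowest.

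**Figure D5:**
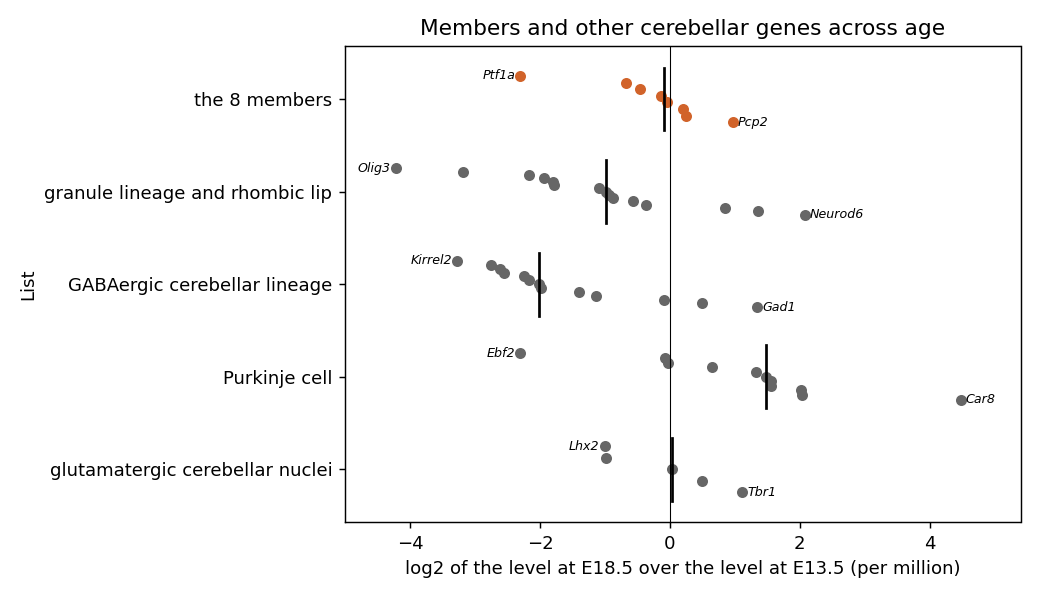
log2 ratio of the level at E18.5 over that at E13.5, scaled to the column sum (x axis), for the 8 genes and for 4 lists of other cerebellar genes with a mean of at least 10 at either age (y axis), with 1 point per gene, a bar at each median and the names of the lowest and highest genes. The medians are -0.98 for the granule lineage and rhombic lip, -2.01 for the GABAergic lineage and 1.48 for the Purkinje cell list.

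Among 47 genes, those of these lists and further ZIC genes, the one whose levels at both ages were nearest was found for each member by the Euclidean distance on the log2 scale, over 2 ages. Zic2 was nearest to Meis2 (distance 0.13), Neurod1 to Slc32a1 (0.26), Zic4 to Zic5 (0.32) and Zic1 to Cntn2 (0.71). Atoh1 had no close gene, with Gsx1 at 1.40. For Ptf1a (2.05) and Pcp2 (1.47) the nearest was Gng13.

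Reads that fall on bases shared by overlapping genes are ambiguous when counted without strand, and such bases were small in number for the other members. Zic1 and Zic4 share 60 exon bases, which is 1.05% of those of Zic1. Zic4 shares a further 468 bases with the annotated locus Gm37477, which had a mean normalized count of 42.4 at E13.5. Neurod1 shares 355 of its 2729 exon bases with Cerkl and Gm26755, whose means were 11.9 and 4.76 at E13.5. Atoh1, Barhl1 and Zic2 overlap no annotated gene. Leaving the shared bases out of the lengths left all 8 genes at their places at both ages, but it changed some levels. The ratio of Pcp2 to Atoh1 rose from 0.132 to 0.273 at E13.5 and from 0.415 to 0.854 at E18.5. That of Ptf1a to Atoh1 rose from 0.177 to 0.296 and from 0.0574 to 0.0963. The ppm values and length-scaled ratios given above for Pcp2 and Ptf1a keep the shared bases in the lengths.

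Of 10 neural markers, all had a mean of at least 10 at both ages and 21.2 to 2826 ppm, with sums of 5912 and 6134. That mean cannot bear out the label of the tissue, because markers of other sources reached it too. All 3 liver and 3 choroid plexus markers did so at both ages. So did 2 of 3 markers each of muscle, cartilage, erythroid cells and retina. En2, a marker of the midbrain and cerebellum, had 95.1 ppm at E13.5 and 23.5 at E18.5. Markers of other cell types and tissues ranged widely. The erythroid marker Hbb-y had 4825 ppm at E13.5, above every neural marker. The 3 liver markers summed to 17.3 and 8.55 ppm, the 3 muscle markers to 7.76 and 12.5, the 3 cartilage markers to 92.6 and 9.26, the 3 choroid plexus markers to 488 and 1770, and the 3 erythroid markers to 5635 and 299. Of the retina markers, which bear on Pcp2, the sum was 12.3 at E13.5 and 2.30 at E18.5. None of the markers was at 0, and their part in the levels of the 8 genes was not tested.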

How the data were processed

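Total RNA of individual whole fetal brains was depleted of ribosomal RNA and sequenced in 2 batches with different kits. The authors trimmed reads with cutadapt 3.1, aligned them to GRCm38 with STAR 2.5.3a, counted them on GENCODE genes with HTSeq without strand, adjusted counts between batches with ComBat-seq and ran DESeq2 1.30.1 (versions per the submitters' notes). The authors deposited 1 table per age. The only value used is the mean normalized count, a signal that the authors averaged over the libraries of an age, each divided by its size factor. Further deposited columns, the authors' own comparison (fold change, its error, statistic and p-values) of the genotypes, were not used.

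The column sums were 28582629 normalized counts at E13.5 and 24565726 at E18.5. Size factors, read from genes with 1 read in 1 library, ran from 0.827 to 1.15 and from 0.947 to 1.17. All 6053 and 7117 genes with a mean under 1 were sums of such whole reads, within the printed digits. Reads per library were worked out only where under 0.01 splits were expected by chance. The working out of reads was tested on simulated data, but without this limit. The simulated means did not reach that of Ptf1a at E13.5 (15.8). Depth of single libraries is otherwise unknown.

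Levels were scaled to the column sum, with exon lengths from GENCODE M21 (41897 genes matched, 37 not), using Python 3.11.15, pandas 2.3.3 and scipy 1.17.1. No test was made, since most means hold no replicates, and the libraries recovered for Ptf1a and Pcp2 have no genotype and were normalized separately at each age. Named genes were the members, their overlapping or adjacent genes and, from each list, the nearest, the 2 highest and the lowest at each age. Genes named beside these (En2, Kirrel2, Gad1, Olig3, Barhl2, Reln, Car8, Calb1, Pvalb, Foxp2, Hbb-y) were chosen after their values were seen. Results of some genes are not reported here. The members and lists were chosen with earlier results of these data known.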

Additional observations from a re-analysis of the deposited data

How the results depend on the processing

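The median percentile of the 8 genes among genes above 0 was 83.2 at E13.5 and 83.1 at E18.5. Over all listed genes it was 87.4 and 86.9, over genes with a mean of at least 10 it was 71.8 and 70.5, and over protein-coding genes it was 72.2 and 71.8. Without division by length 5 of the 8 genes kept their place at each age, and with the longest transcript 6 did. The number of genes lower at E18.5 was 4 to 6 over the 6 scalings. Zic1 had a log2 ratio of 0.02 when scaled to the median of gene ratios and 0.08 when scaled to the upper quartile, against -0.05, and Zic4 had -0.02 with the deposited means as they stand, against 0.20. The deposited means moved the median of all genes by -0.22 and the upper quartile moved it by 0.13 on the log2 scale. Leaving out each library in turn, which was added after seeing the data, gave means of 13.9 to 17.3 for Ptf1a at E13.5, 2.47 to 3.03 at E18.5, and at most 15.2 for Pcp2 at E13.5. No paired analysis was possible because no result comes from a test. Libraries could not be left out of the other means, which are pooled.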
